A study of Mus musculus with 12 samples.

Results

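The integrated stress and amino acid response genes are 35 mouse genes that act in or below the ATF4 pathway, in amino acid synthesis and transport, and in the unfolded protein response. They were chosen by name, and 35 of 35 were found among the 40077 genes of the cell table and the 34508 genes of the tumor table. Ddit4 was known to be among the larger increases in treated cells when the genes were chosen, so values of these genes in the cells are a description with no test. The rule uses no tumor value and the tumors were tested, although earlier results of both experiments were known when the genes were chosen.

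The samples were 12 RNA sequencing libraries in 4 groups of 3. Myc-CaP is a mouse prostate carcinoma line whose founder animal carried a human MYC transgene driven in the prostate, and YJ1206 is an orally bioavailable PROTAC, a molecule that directs CDK12 and CDK13, kinases of RNA polymerase II elongation, to degradation. Cultured Myc-CaP cells received DMSO or YJ1206 at 1 μM for 24 hours, and Myc-CaP tumors grown under the skin of male FVB mice came from animals that received vehicle or oral YJ1206 (100 mg/kg, 3 doses per week). All 4 groups thus carry the same MYC-driven line, the tumors add the host cells of FVB mice, whose age is not given in the sources used here, and no library is tied by its labels to an animal or culture, so p-values measure the spread between libraries.

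Cells that lack amino acids or accumulate unfolded protein in the endoplasmic reticulum (ER) activate kinases, among them GCN2 and PERK, that phosphorylate the translation factor eIF2. General translation then slows while the transcription factor ATF4 is made, and ATF4 with partners of the C/EBP family turns on genes for amino acid synthesis, amino acid import and tRNA charging. The unfolded protein response runs beside it through ATF6 and XBP1, which raise ER chaperones. Prostate carcinoma cells are secretory and growing, and use these programs to supply protein synthesis.

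ATF4 binds a C/EBP-ATF response element (CARE), searched here as TGATGNAA on either strand (TTNCATCA when read on the other). Of 31 members with an entry in the RefSeq promoter table (GRCm38.p6, 250 bases before to 50 after the start of transcription), 8 had a match, in 8 of 37 windows, against 3.97% of all 32851 windows. The 250 bases before the start are shown for 6 of the 8, since they set members that were higher in treated cells beside members with the same element that were not. Capitals mark the CARE match and, in Herpud1 only, also an ER stress element of the second type (ERSE-II), searched as ATTGG, any base and CCACG. The sequences are written 5′ to 3′ on the strand of the gene.
Asns: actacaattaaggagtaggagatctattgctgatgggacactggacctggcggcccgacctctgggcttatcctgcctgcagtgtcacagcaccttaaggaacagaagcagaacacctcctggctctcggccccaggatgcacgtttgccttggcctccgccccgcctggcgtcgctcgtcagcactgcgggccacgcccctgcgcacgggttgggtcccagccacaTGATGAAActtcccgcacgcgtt
Pycr1: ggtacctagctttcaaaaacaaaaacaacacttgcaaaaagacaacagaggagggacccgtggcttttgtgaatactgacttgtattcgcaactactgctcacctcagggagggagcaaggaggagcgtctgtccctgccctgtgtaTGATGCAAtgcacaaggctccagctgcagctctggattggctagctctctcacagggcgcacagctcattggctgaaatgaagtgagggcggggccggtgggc
Nupr1: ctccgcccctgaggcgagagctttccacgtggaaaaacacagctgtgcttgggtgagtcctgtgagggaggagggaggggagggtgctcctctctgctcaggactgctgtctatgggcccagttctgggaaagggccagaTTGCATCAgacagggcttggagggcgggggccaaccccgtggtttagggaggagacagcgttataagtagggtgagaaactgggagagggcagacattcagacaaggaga
Herpud1: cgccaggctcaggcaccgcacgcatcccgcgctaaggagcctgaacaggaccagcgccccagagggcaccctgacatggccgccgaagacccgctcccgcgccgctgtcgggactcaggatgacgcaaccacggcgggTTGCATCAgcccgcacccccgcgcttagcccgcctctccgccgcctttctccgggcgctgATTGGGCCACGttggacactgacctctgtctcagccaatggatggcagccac
Chac1: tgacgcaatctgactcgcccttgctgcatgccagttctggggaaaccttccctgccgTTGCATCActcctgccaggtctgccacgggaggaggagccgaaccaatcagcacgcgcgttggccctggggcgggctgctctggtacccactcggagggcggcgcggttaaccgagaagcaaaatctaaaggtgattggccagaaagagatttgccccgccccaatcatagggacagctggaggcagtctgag
Slc7a11: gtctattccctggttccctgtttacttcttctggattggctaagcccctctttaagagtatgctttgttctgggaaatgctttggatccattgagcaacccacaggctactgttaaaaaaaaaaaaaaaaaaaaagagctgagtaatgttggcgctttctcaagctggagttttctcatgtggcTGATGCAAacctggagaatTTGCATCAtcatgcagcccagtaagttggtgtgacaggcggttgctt

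The windows lie at chr6:7693210-7693459 on the minus strand for Asns, chr11:120643749-120643998 (minus) for Pycr1, chr7:126625471-126625720 (minus) for Nupr1, chr8:94386179-94386428 (plus) for Herpud1, chr2:119350992-119351241 (plus) for Chac1 and chr3:50443614-50443863 (minus) for Slc7a11. The match began 23 bases before the start in Asns, 103 in Pycr1, 110 in Nupr1, 112 in Herpud1, 193 in Chac1 and 66 and 47 in Slc7a11. Trib3 had its match 14 bases after the start, and Vldlr had one 200 bases before 1 of its 2 starts. ERSE-II was in 0.0365% of all windows and, among the members, in Herpud1 alone, 52 bases before the start. The longer ERSE, searched as CCAAT and CCACG with 9 bases of any kind between them, was in 0.119% of all windows and in no member window, and the cAMP response element TGACGTCA was in 1.79% and, among the members, in that of Ppp1r15a. A match is a description of these letters and not a measured site of binding.

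Depth was 13936902 to 18519926 estimated counts per library in the cells and 15391544 to 26928365 in the tumors, so that 3 counts, taken as the floor, correspond to at most 0.231 CPM in cells and 0.194 CPM in tumors. CPM, counts relative to the size of the library, are given on sizes scaled by TMM, a method that takes most genes to be unchanged. In the cells 8995 of 11826 genes passed the edgeR quasi-likelihood test, 4467 higher and 4528 lower, so most genes differed there. CPM in the cells are thus shares of a library and not amounts per cell. In the cells the library numbers of the DMSO group belong to another run of numbers than those of the YJ1206 group, and the effects of preparation and of treatment cannot be told apart. In the cells Epcam and all 4 leukocyte markers were at or under 3 counts in every library, while Krt8, an epithelial keratin, stood at 2.77 to 3.15 CPM with DMSO and 31.8 to 33.4 CPM with YJ1206, and Krt18 and Cdh1, other epithelial markers, were at most 0.615 CPM in any library. In the tumors library 3 lay between the other two of its group for 99.4% of the 616 genes that differed at least 2-fold between vehicle libraries 1 and 2, and for 95.2% of 188 such genes in the YJ1206 group. When library 1 or library 2 of the vehicle group was taken as the middle, this share was 6.22% or 14.3%. Whether library 3 is a separate tumor or a mixture of the other two was not tested, and if it is not separate, the tumor SE and p-values with n = 3 rest on 2 independent samples per group. For the members that passed in the tumors, and for other pathway genes given there with an SE, the values without library 3 of both groups therefore stand beside the call.

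In the treated cells Ddit4, Ddit3, Ppp1r15a, Trib3, Nupr1, Sesn2, Atf5, Asns, Mthfd2, Pycr1 and Herpud1 were higher by at least 1 on the log2 scale, while Xbp1 and the cystine and glycine transporters Slc7a11 and Slc6a9 were lower, and Chac1, Cebpb and Cth overlapped between groups. Of the 33 members with enough counts, 11 were higher by at least 1, where 7.93% of the 11826 genes tested were, and 2 were lower by as much, where 10.5% of all genes were. All YJ1206 libraries lay above all DMSO libraries for 19 members (38.4% of all genes) and below them for 9 (39.2%), and the groups overlapped for 5. The median log2 fold change over the 33 members was 0.23, and over all genes −0.017. Nothing is read from these counts, because the cells were in view when the genes were chosen. Vldlr, a lipoprotein receptor, had at most 1 count in any cell library, and Stc2, a secreted glycoprotein, had 0 in each, which allows up to 0.231 CPM. The heat map of all measured members shows how the cell libraries of a group resemble each other and the tumor libraries spread.

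**Figure D1:**
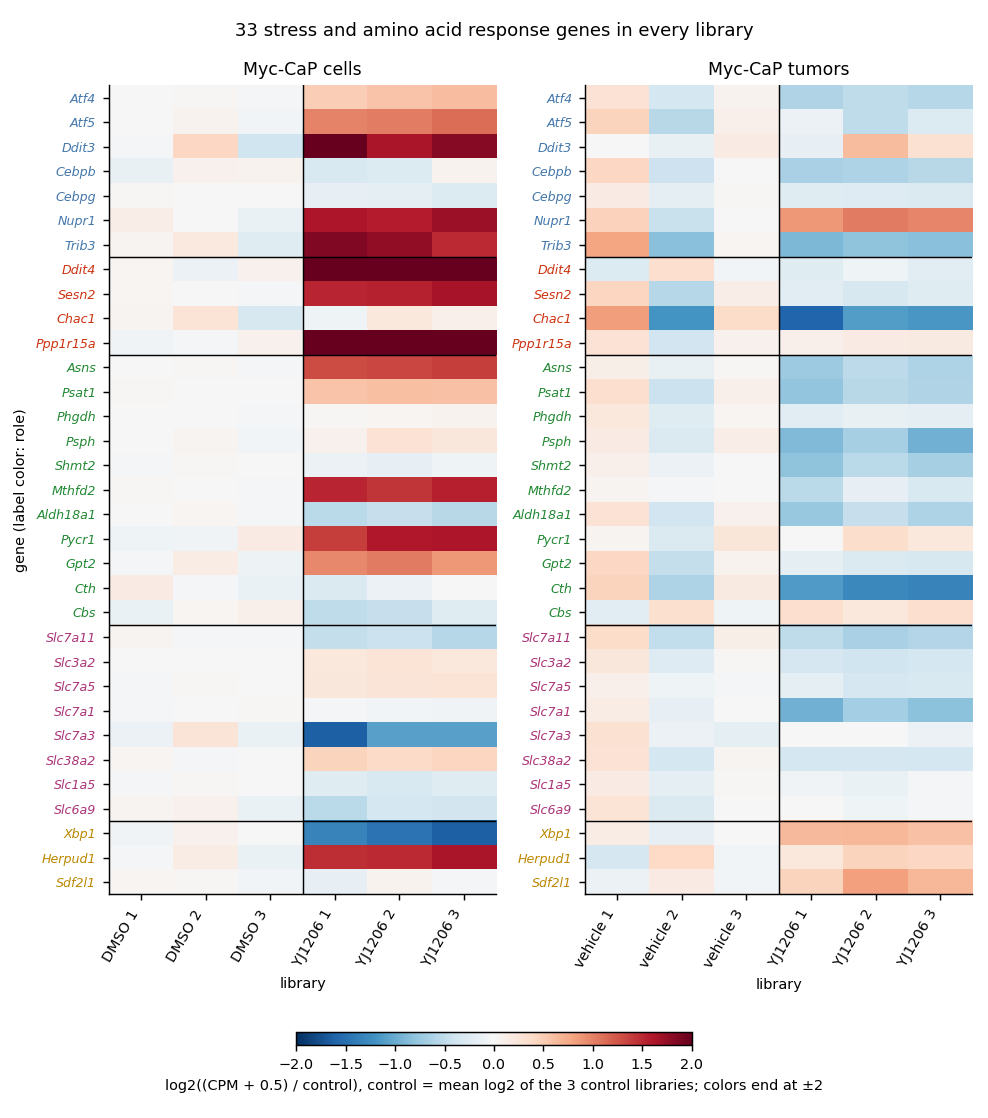
Heat map of log2((CPM + 0.5) / control) for the 33 members measured in both experiments, 1 row per gene colored by role and 1 column per library, with cells at left and tumors at right; control is the mean log2 value of the 3 DMSO or vehicle libraries, and colors end at ±2. The treated cells are dark red for Ddit4, Ddit3, Ppp1r15a and Trib3, while most rows of the treated tumors are blue, with Nupr1, Xbp1 and Sdf2l1 red.

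Ddit4, which encodes REDD1, an inhibitor of mTORC1 signaling, is a short gene at chr10:59949669-59951834 (GRCm38, minus strand) and showed the largest difference of the module in the cells. Its level was 4.87, 4.34 and 5.04 CPM with DMSO and 78.5, 72.4 and 77.1 CPM with YJ1206. Every treated library lay far above every control, a 16.0-fold difference with an SE of 0.078 on the log2 scale (n = 3 per group). Ppp1r15a, the GADD34 subunit that directs dephosphorylation of eIF2, stood at 16.9, 17.6 and 18.9 CPM against 73.9, 75.0 and 74.2 (log2 fold change 2.06 ± 0.059). Sesn2, a leucine sensor that restrains mTORC1, stood at 8.16, 7.85 and 7.81 CPM against 23.8, 23.9 and 25.9 (1.63 ± 0.093). These 3 feedback genes did not overlap between groups. Chac1, which degrades glutathione and is a well-known ATF4 and CHOP target, was the exception among the measured effectors. It stood at 2.56, 3.10 and 1.86 CPM with DMSO and 2.29, 2.94 and 2.69 CPM with YJ1206, and the groups overlapped (0.07 ± 0.25). Its promoter, shown above, is among those with a CARE match.

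Among the transcription factors and their regulators, the stress-induced ones were low in control cells and higher after treatment, while the C/EBP partners were not. Ddit3, which encodes CHOP, stood at 1.13, 1.70 and 0.756 CPM against 6.23, 4.60 and 5.31 (log2 fold change 2.17 ± 0.25, SE here and in what follows). Trib3, a pseudokinase that feeds back on ATF4, stood at 1.64, 1.86 and 1.26 CPM against 7.01, 6.57 and 5.31 (1.99 ± 0.21). Nupr1, a small stress-induced chromatin protein, stood at 4.62, 4.13 and 3.73 CPM against 13.7, 13.4 and 14.7 (1.74 ± 0.12). No library of one group reached the other for any of the 3. Atf5, a relative of ATF4, rested at 26.4, 27.9 and 25.5 CPM and stood at 53.3, 54.4 and 58.1 CPM with YJ1206 (1.06 ± 0.060). Atf4 itself, at chr15:80255184-80257541, was an abundant transcript with a smaller difference, 164, 167 and 160 CPM against 232, 244 and 252 (0.57 ± 0.035). ATF4 is controlled mainly at translation, which these data do not measure. Cebpg, the partner of ATF4, was lower in all treated libraries (−0.21 ± 0.044), and Cebpb overlapped between groups (−0.17 ± 0.11).

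Enzymes of amino acid and one-carbon synthesis split within single pathways. Asns, asparagine synthetase, stood at 173, 174 and 169 CPM with DMSO and 426, 433 and 447 CPM with YJ1206 (log2 fold change 1.34 ± 0.030). Mthfd2, the mitochondrial folate enzyme, stood at 101, 99.6 and 96.2 CPM against 286, 268 and 291 (1.51 ± 0.037), whereas Shmt2, the enzyme just before it, was slightly lower in every treated library (−0.12 ± 0.029). In proline synthesis Pycr1, the last step, stood at 2.98, 3.00 and 3.63 CPM against 9.09, 10.6 and 10.8 (1.66 ± 0.15), and Aldh18a1, the first step, was lower, 137 ± 3.46 CPM against 95.8 ± 3.09 (SD, −0.52 ± 0.039). The ends of both pathways thus differed in opposite directions from the steps before them. In serine synthesis Psat1 was higher (0.58 ± 0.024), Psph less so (0.21 ± 0.072), and Phgdh, the first enzyme, differed by 0.04 ± 0.027 with no overlap between groups. Gpt2, the mitochondrial alanine aminotransferase, was higher (0.97 ± 0.076). The transsulfuration enzyme Cbs was lower (−0.42 ± 0.10), and Cth, which follows it, overlapped (−0.14 ± 0.095).

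The amino acid transporters went in both directions. Slc38a2, which carries neutral amino acids (SNAT2), was higher at 571 ± 14.1 CPM against 765 ± 17.3 CPM (0.42 ± 0.026). Slc7a5 and Slc3a2, the light and heavy chain of the LAT1 transporter for large neutral amino acids, were higher by 0.26 ± 0.026 and 0.23 ± 0.031. Slc7a11, the cystine transporter that pairs with the same heavy chain and whose promoter holds 2 CARE matches, was lower (−0.49 ± 0.043). Slc6a9 (glycine) and Slc1a5 (glutamine) were also lower, by −0.44 ± 0.098 and −0.26 ± 0.038, and Slc7a1 (cationic amino acids) overlapped. Slc7a3, another cationic transporter, was near the floor, with DMSO counts of 18, 26 and 18 and YJ1206 counts of 0, 3 and 3, for which no fold is given. Among the unfolded protein response genes, Herpud1, an ER membrane protein of ER-associated degradation, stood at 27.8, 31.5 and 25.7 CPM against 79.9, 79.9 and 88.6 (1.55 ± 0.062). Xbp1, the transcription factor of the same response, went the other way, 20.1, 22.4 and 21.0 CPM against 8.09, 7.25 and 6.46 (−1.54 ± 0.10). Sdf2l1, an ER chaperone cofactor, overlapped (−0.04 ± 0.086). The 3 members of the unfolded protein response therefore did not differ together.

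The small differences in the cells depend on the scaling. Over all genes the median log2 fold change came to −0.017 under TMM, to −0.20 under scaling by total counts and to −0.24 on log2(TPM + 1), where TPM is a transcript level corrected for gene length and depth. The share of called genes that was higher was 49.7%, 36.1% and 29.2% in turn. On the TPM scale Psph, Slc3a2 and Slc7a5 were lower with YJ1206, by −0.12, −0.27 and −0.05, and Phgdh and Chac1 changed sign under both other scalings. Of the 11 members higher by at least 1, all but Atf5 stayed above 1 under the 3 scalings; Atf5 came to 0.87 and 0.72. Gene length was set beside these values as a description. Spearman's rho between gene span and log2 fold change was −0.30 over the 33 members and −0.049 over 11822 genes, all measured in the same libraries, and the median span was 7.61 kb for the 11 members higher by at least 1 and 16.9 kb for the 13 below 0. Over all genes it was likewise shorter for the higher ones, 12.8 kb for 938 genes against 22.7 kb for 6049.

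**Figure D2:**
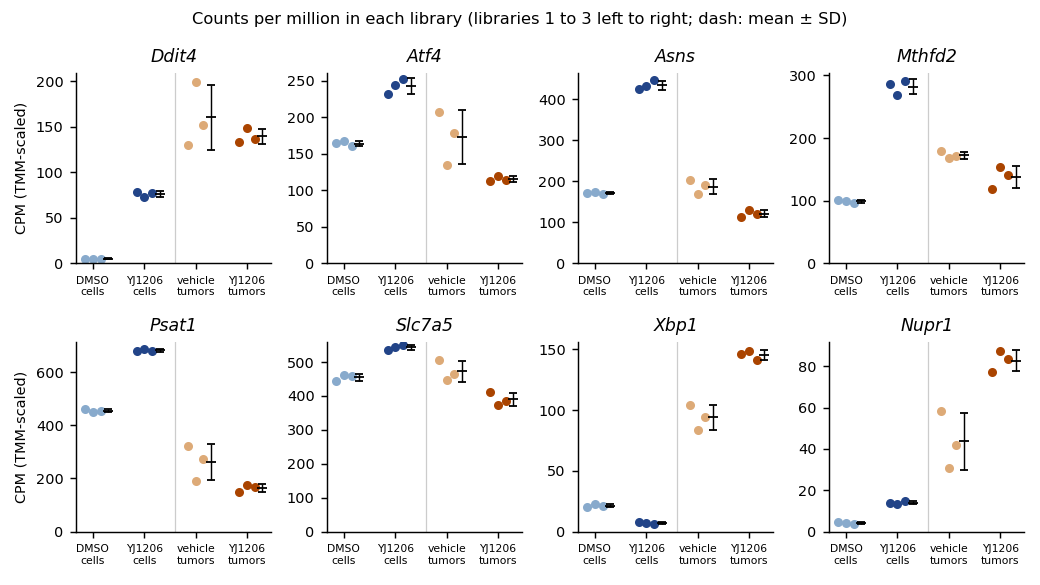
CPM (linear axis from 0) in each library for 8 members, with libraries 1 to 3 of a group from left to right, the dash and bars showing the mean ± SD (n = 3), and a gray line between the separately normalized cells and tumors. Atf4, Asns, Mthfd2, Psat1 and Slc7a5 are higher with YJ1206 in cells and lower in tumors, Xbp1 the reverse, Nupr1 is higher in both, and Ddit4 overlaps in tumors.

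In the tumors most members that passed the test fell with YJ1206, led by enzymes of amino acid and one-carbon synthesis, while Nupr1, Xbp1 and Sdf2l1 rose. Of the 35 members, 11 fell at an adjusted p-value under 0.05 (edgeR quasi-likelihood test, adjusted over 15558 genes), where 14.9% of all genes fell, and 3 rose, where 11.9% of all genes rose. The fitted change was below 0 for 27 members and above 0 for 8, with a median of −0.31 against 0.009 over all genes. All treated libraries lay below all vehicle libraries for 14 members (22.8% of all genes) and above them for 3 (21.8%), and 18 overlapped. Without library 3 of both groups 0 members passed in edgeR, where 1 of all genes did (0.00638%) and 3068 reached an unadjusted p under 0.05, 8 of them members. The 21 members that had not passed came to log2 fold changes of −1.55 to 0.38 there (adjusted p = 0.303 to 0.896), and Vldlr alone of these changed sign. Of the genes called with all libraries 44.4% rose, and 34.5% on log2(TPM + 1). Without vehicle library 2, 21 members fell (19.5% of all genes) and 5 rose (16.7%).

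Enzymes of amino acid and one-carbon synthesis gave 7 of the 11 decreases, and none of the 11 enzymes tested rose. Asns stood at 203, 168 and 190 CPM in vehicle tumors and 112, 130 and 121 CPM in YJ1206 tumors (log2 fold change −0.63 ± 0.087, adjusted p = 0.00324; −0.62 and adjusted p = 0.140 without library 3). Shmt2 stood at 207, 178 and 193 CPM against 110, 133 and 121 (−0.67 ± 0.086, 0.00267; −0.67 and 0.137). Psph, the last step of serine synthesis, stood at 36.9, 26.6 and 35.8 CPM against 17.6, 20.5 and 16.5 (−0.86 ± 0.15, 0.00678; −0.74 and 0.168). For these 3 enzymes the groups were apart and the call held whichever single library was left out. Cth, which makes cysteine, had the largest decrease that passed, 49.3, 23.5 and 40.8 CPM against 16.2, 14.5 and 14.0 (−1.35 ± 0.25, 0.00876; −1.25 and 0.175), and narrowly missed the threshold without YJ1206 library 3 (adjusted p = 0.0501).

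Psat1, Aldh18a1 and Mthfd2 passed with less margin. Psat1, the middle step of serine synthesis, stood at 323, 190 and 275 CPM against 148, 174 and 169 (log2 fold change −0.68 ± 0.18, adjusted p = 0.0294; −0.67 and 0.261 without library 3). Aldh18a1 stood at 167, 104 and 145 CPM against 80.6, 99.2 and 88.6 (−0.63 ± 0.17, 0.0294; −0.60 and 0.276). In both, vehicle library 2 came close to the treated libraries, and the call held in only 1 of the 6 fits with a library left out, the one without vehicle library 2 (lost at adjusted p = 0.0533 to 0.0991 for Psat1 and 0.0564 to 0.107 for Aldh18a1). Mthfd2 stood at 179, 168 and 172 CPM against 118, 154 and 140 (−0.33 ± 0.096, 0.0421; −0.35 and 0.301) and held in 2 of the 6, those without vehicle library 2 and without YJ1206 library 2 (lost at 0.0651 to 0.120). The other 4 enzymes, Phgdh, Gpt2, Pycr1 and Cbs, did not pass, with log2 fold changes of −0.19, −0.31, 0.19 and 0.27 and adjusted p-values of 0.191 to 0.450.

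All 8 amino acid transporters had a fitted change below 0 in the tumors, and 2 passed. Slc7a1, the ubiquitous importer of arginine and lysine, stood at 267, 216 and 243 CPM against 124, 150 and 136 (log2 fold change −0.83 ± 0.10, adjusted p = 0.00216; −0.82 and 0.134 without library 3). It had the smallest adjusted p of the module, with a fall in the tumors and overlapping groups in the cells. Slc7a5 stood at 506, 447 and 465 CPM against 411, 374 and 384 (−0.28 ± 0.067, 0.0211; −0.28 and 0.282), a small decrease that was lost without vehicle library 3, YJ1206 library 2 or YJ1206 library 3 (adjusted p = 0.0756, 0.0737 and 0.0920). Its heavy chain Slc3a2 and the cystine transporter Slc7a11 lay lower in every treated library without passing in edgeR, with log2 fold changes of −0.37 and −0.62 (adjusted p = 0.0518 for each), whereas DESeq2 called both lower (0.0174 and 0.00508). The rest, Slc38a2, Slc7a3, Slc1a5 and Slc6a9, overlapped, with log2 fold changes of −0.37 to −0.06, and of these DESeq2 called Slc38a2 lower (0.0465).

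Of the transcription factors, Atf4 and Cebpb fell and Nupr1 rose. Atf4 stood at 207, 134 and 179 CPM in vehicle tumors and 112, 120 and 114 CPM in YJ1206 tumors (log2 fold change −0.59 ± 0.15, adjusted p = 0.0234; −0.56 and 0.256 without library 3). Cebpb stood at 61.1, 34.2 and 46.4 CPM against 29.1, 29.6 and 31.0 (−0.66 ± 0.19, 0.0412; −0.70 and 0.270). The treated libraries were tight and the vehicle libraries wide in both genes. The call on Atf4 was lost without vehicle library 3 or any 1 YJ1206 library (adjusted p = 0.0667 to 0.0916), and that on Cebpb held only without vehicle library 2 (lost at 0.0609 to 0.115). Nupr1 stood at 58.5, 30.8 and 42.0 CPM against 77.3, 87.3 and 83.6 (0.92 ± 0.21, 0.0167; 0.88 and 0.222). It was the only member with all treated libraries higher in both cells and tumors, and in the tumors the call was lost without vehicle library 3, YJ1206 library 2 or YJ1206 library 3 (0.0722, 0.0610 and 0.0689). Ddit3, Atf5 and Cebpg did not pass in edgeR (0.30, −0.35 and −0.27, adjusted p = 0.0551 to 0.319), and DESeq2 called Cebpg lower (0.0422).

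The 6 effector and feedback genes, Ddit4 among them, did not pass in the tumors with edgeR (adjusted p = 0.0503 to 0.964), and DESeq2 called Chac1 lower (0.00121). Ddit4 stood at 130, 199 and 152 CPM in vehicle tumors and 133, 149 and 137 CPM in YJ1206 tumors (log2 fold change −0.20 ± 0.15, adjusted p = 0.353; −0.22 and 0.622 without library 3), and the treated libraries lay inside the vehicle range. Ppp1r15a and Sesn2 overlapped as well (0.13 and −0.32), as did Vldlr and Stc2 (−0.01 and −0.14). Chac1 had the largest fitted difference of the module, 25.9, 5.93 and 18.6 CPM against 4.42, 6.35 and 6.08 (−1.57 ± 0.49, adjusted p = 0.0503; −1.55 and 0.303). Trib3, from among the regulators, had the same shape, 21.6, 6.68 and 12.7 CPM against 6.33, 6.80 and 6.65 (−1.04 ± 0.38, 0.0821; −1.10 and 0.344), and was called lower by DESeq2 (0.0151). In both genes vehicle library 2 lay inside or beside the treated range and vehicle libraries 1 and 3 far above it; without vehicle library 2 both passed (adjusted p = 0.000366 and 0.00213).

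Of the 3 unfolded protein response members, 2 rose in the tumors. Xbp1 stood at 104, 83.6 and 94.4 CPM in vehicle tumors and 146, 148 and 141 CPM in YJ1206 tumors (log2 fold change 0.63 ± 0.084, adjusted p = 0.00303; 0.65 and 0.137 without library 3). Sdf2l1 stood at 31.4, 38.1 and 32.8 CPM against 46.6, 60.2 and 54.3 (0.66 ± 0.12, 0.00733; 0.62 and 0.175). Both held whichever single library was left out. Herpud1 stood at 144 ± 37.5 CPM against 180 ± 15.9 CPM (SD) and did not pass (0.33, adjusted p = 0.208), with vehicle library 2 at 185 CPM inside the treated range.

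The cellular makeup of the vehicle libraries varied in the same order as several members. The summed CPM of 5 fibroblast markers was 2291, 740.5 and 1666 in vehicle libraries 1, 2 and 3 and 513 to 1271 in the YJ1206 libraries, and that of 5 skeletal muscle markers was 675, 16.3 and 413 against 8.41 to 9.64. Of the 35 members 26 were likewise highest in vehicle library 1 and lowest in library 2 of that group, where 29.2% of the 15558 genes tested were. They include all 11 members that fell, Asns, Shmt2, Psph and Slc7a1 among them, and Nupr1 and Xbp1, which rose. Ddit4, Cbs, Herpud1 and Sdf2l1 had the reverse order. The order was not particular to fibroblast and muscle markers. The epithelial sum, 85.8, 69.8 and 78.7 CPM in vehicle libraries 1, 2 and 3, and the macrophage and neutrophil sums shared it. The leukocyte and endothelial sums were lowest in library 1 and highest in library 2. For the leukocytes this order was that of Cd52, while Laptm5 had the reverse, at 29.5, 19.3 and 22.4 CPM. Ptprc and Coro1a were lowest in library 1 and highest in library 3. All 4 muscle markers tested fell and the 5 fibroblast markers had adjusted p-values of 0.0928 to 0.933, while 2 of 6 macrophage markers, C1qa and C1qb, rose (adjusted p = 0.0278 and 0.0131). The 6 together summed to 133 to 223 CPM in vehicle and 188 to 258 CPM in YJ1206 tumors, which overlap. The epithelial markers Krt8, Krt18, Cdh1 and Epcam summed to 69.8 to 85.8 CPM against 86.7 to 96.9, of which Krt8 made up the most (adjusted p = 0.0562), with Epcam at most 0.194 CPM in any tumor library. The 4 leukocyte markers summed to 64.7 to 99.1 CPM against 110 to 136 (adjusted p = 0.107 to 0.753), with no overlap of the sums. This gap rests largely on Cd52, at 14.9, 59.1 and 32.2 CPM against 69.8, 73.9 and 73.9. Coro1a was also apart, while Ptprc and Laptm5 overlapped between groups. The neutrophil markers summed to 17.2 to 19.5 CPM in vehicle and 14.1 to 15.8 in YJ1206 tumors, with Ly6g at 0 throughout and S100a9 falling (0.0437). The endothelial markers summed to 95.9 to 103 against 110 to 122 CPM, with Cdh5 rising (0.0427). The adipocyte markers summed to 31.4 to 35.2 against 41.9 to 50.4 CPM, nearly all of it Fabp4, which rose (0.00581). Fabp4 stood at 32.4 to 37.1 CPM in the cultured cells as well, so this sum cannot be read as adipocytes. Adipoq and Cfd, too low to test, went the other way on average. Their means were 0.515 and 1.72 CPM in vehicle tumors and 0.048 CPM each in YJ1206 tumors, and Plin1 overlapped. The part of these cells in the tumor results was not tested, and in such bulk tissue fewer cells of a type and less RNA per cell cannot be told apart.

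**Figure D3:**
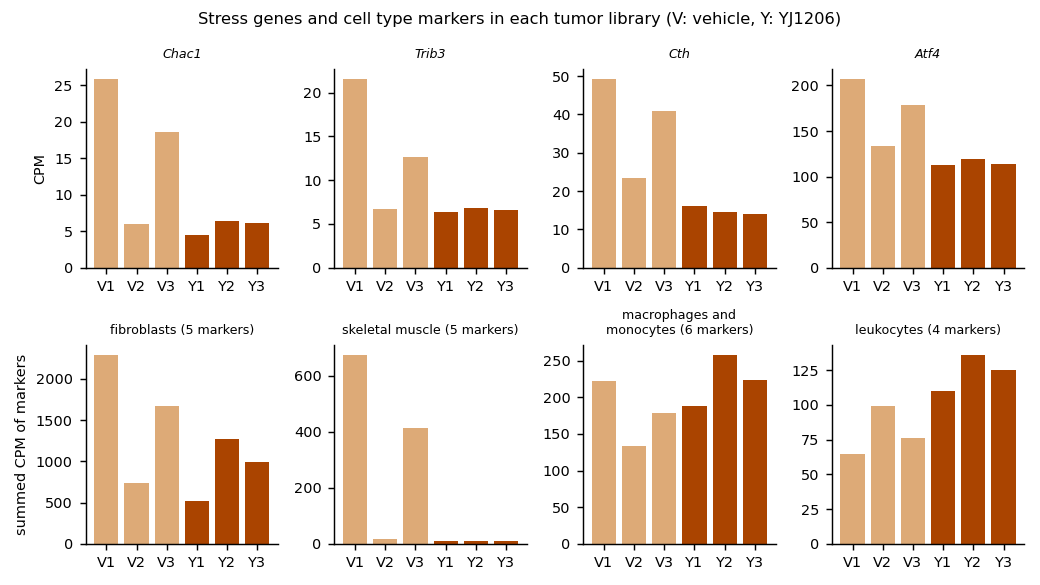
Bars from 0 show CPM of 4 members (top) and summed CPM of 4 marker lists (bottom) in each tumor library, V1 to V3 vehicle and Y1 to Y3 YJ1206. Chac1, Trib3, Cth and Atf4 share with the fibroblast, muscle and macrophage markers a high V1, a middle V3 and a low V2. The leukocyte sum is lowest in V1, as is Cd52, whereas Laptm5 is highest there among the vehicle libraries. The sum lies at 110 to 136 CPM in the YJ1206 libraries and 64.7 to 99.1 CPM in the vehicle libraries, a gap that rests largely on Cd52.

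Set side by side, 18 of the 33 members measured in both experiments had fitted changes of opposite sign in cells and tumors, and 15 of the same sign. The majority turns with the scaling, to 16 and 17 by total counts, where Chac1 and Phgdh turn in the cells, and to 13 and 20 on log2(TPM + 1), where Psph, Slc3a2 and Slc7a5 turn too. All treated libraries were higher in the cells and lower in the tumors in CPM for 7 members, Atf4, Asns, Psat1, Psph, Mthfd2, Slc3a2 and Slc7a5 (of which Psph, Slc3a2 and Slc7a5 flip in the cells on the TPM scale), and lower in the cells and higher in the tumors for Xbp1. Cebpg, Shmt2, Aldh18a1 and Slc7a11 were lower in both. In each experiment alone, all treated libraries were higher for 38.4% of all genes in cells and 21.8% in tumors. They were lower for 39.2% and 22.8%. How many of all genes show these joint patterns, or fitted changes of opposite sign, was not counted, so these counts describe the members only and mark no trait of the module. The difference between the experiments was not tested, since dose, route, time and tissue differ.

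**Figure D4:**
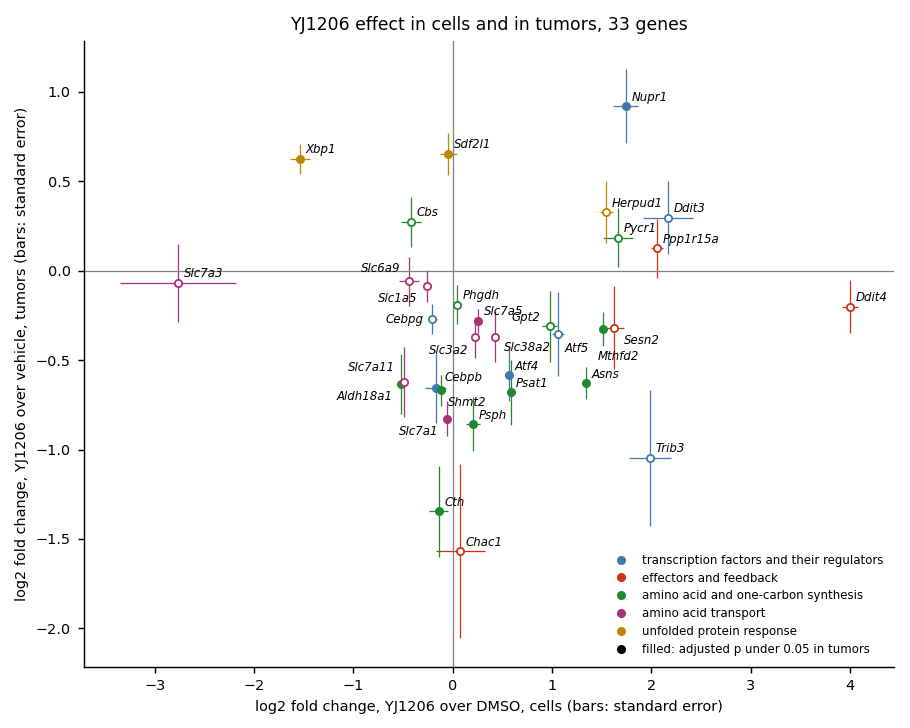
Log2 fold change of each member in cells (x axis, YJ1206 over DMSO) and tumors (y axis, YJ1206 over vehicle), 1 point per gene with bars of ± SE, colors for the 5 roles and filled points for an adjusted p under 0.05 in tumors. Asns and Mthfd2 lie at lower right, Xbp1 at upper left, Nupr1 at upper right, and Ddit4 far right near 0 in tumors; the x value of Slc7a3 rests on counts near the floor.

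The level in the control libraries also differed between the materials, here in TPM so that genes can be compared. Ddit4 stood at 5.17 ± 0.420 TPM in DMSO cells and 66.6 ± 2.83 in treated cells, against 163 ± 32.1 in vehicle tumors and 135 ± 6.42 in YJ1206 tumors (SD, n = 3). The treated cells thus stayed below the untreated tumors in this gene. The mean TPM was higher in vehicle tumors than in DMSO cells for 30 of the 35 members, where it was for 71.8% of 15461 genes, and for 24 in every library, where 61% of genes were. Apart from Vldlr and Stc2, which were at or near 0 in the cells, the ratio was highest for Ddit4 (31.4), Ddit3 (9.48), Nupr1 (9.42), Trib3 (8.13) and Chac1 (6.29). It was 5.38 for Gpt2 and 4.30 for Cbs, and among other stress genes 3.38 for Sesn2, 1.59 for Ppp1r15a and 0.989 for Atf4. Psat1, Phgdh and Shmt2 were lower in every vehicle tumor library than in every DMSO library, as were 20.7% of genes, with ratios of 0.556, 0.536 and 0.514. In DMSO cells Phgdh, Psat1, Shmt2 and Slc3a2 were the most abundant of the module (515 ± 9.16, 328 ± 5.15, 285 ± 4.06 and 280 ± 8.19 TPM), the last 2 of which do not differ beyond their spread. In vehicle tumors Slc3a2, Phgdh, Slc38a2 and Slc7a5 led (365 ± 64.2, 276 ± 51.9, 236 ± 55.0 and 224 ± 18.7 TPM), and the ranges of mean ± SD of neighbors in this order overlap. The tables were normalized separately and list different numbers of genes, and the labels name polyA RNA for the cells and total RNA for the tumors, so that kind of RNA and material cannot be told apart in these ratios and no test was made across them.

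**Figure D5:**
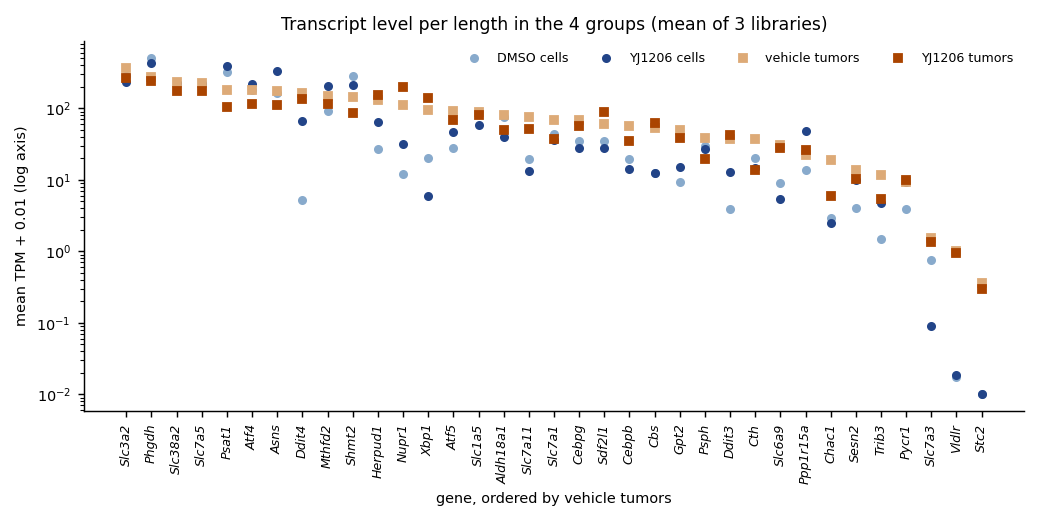
Mean TPM + 0.01 (log axis, n = 3 libraries) of the 35 members in the 4 groups, ordered by the level in vehicle tumors; circles are cells and squares tumors. Ddit4, Ddit3, Trib3 and Nupr1 sit well below the tumor squares in DMSO cells, whereas Psat1, Phgdh and Shmt2 sit above them.

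The rest of the pathway was followed with 7 lists of 125 other genes, written from general knowledge with earlier results of these data known. In the cells 52 of 110 tested genes rose and 41 fell, where 37.8% and 38.3% of all genes did. The share that rose lay above that of all genes, and the share that fell lay near it. These counts are under TMM and depend on the scaling. The median log2 fold change of the lists was 0.075 under TMM, −0.11 by total counts and −0.14 on log2(TPM + 1). For the synthetases below it was 0.24, 0.056 and −0.081 in turn. Of 15 genes of the eIF2 kinases and their machinery, 8 rose and 6 fell. Eif2ak3, which encodes PERK, rose from 21.2 ± 0.597 to 34.5 ± 1.57 CPM (log2 fold change 0.70 ± 0.069), Eif2b4, a subunit of the eIF2 exchange factor, rose by 1.12 ± 0.053, and Eif2ak2, which encodes PKR, fell (−0.93 ± 0.089). Eif2ak4, which encodes GCN2, fell by less (−0.24 ± 0.049). Of 20 cytosolic aminoacyl-tRNA synthetases, which charge tRNAs and are partly ATF4 targets, 12 rose and 6 fell, with Gars rising from 396 ± 7.90 to 802 ± 8.96 CPM (1.02 ± 0.025) and Vars by 0.76 ± 0.031. Of 10 other ATF4 and CHOP targets tested, 5 rose and 3 fell: Sqstm1, an autophagy receptor, rose by 1.22 ± 0.038, Ero1l, an ER oxidase, by 0.93 ± 0.035 and Atf3 by 0.80 ± 0.11. Each of these named genes had an adjusted p (edgeR) of 8.63e-05 or smaller.

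The metabolic and ER lists were mixed in the cells. Among 18 other serine, one-carbon, proline and transsulfuration enzymes 9 rose and 8 fell, with Aldh4a1, which breaks proline down to glutamate, rising from 23.9 ± 1.48 to 105 ± 1.09 CPM (2.14 ± 0.052) and Amt of the glycine cleavage system falling (−1.25 ± 0.11). Of 13 other amino acid transporters 2 rose and 6 fell, among them Slc25a22, the mitochondrial glutamate carrier (1.18 ± 0.055), and Slc38a9, the lysosomal arginine sensor (−2.07 ± 0.16). Of 22 ER chaperone and ER-associated degradation genes 9 rose and 8 fell. Hspa5, the chaperone BiP, stood at 621 ± 6.22 CPM with DMSO and rose by 0.71 ± 0.024, and Dnajb9 by 0.93 ± 0.13. Of 12 genes of amino acid sensing to mTORC1 7 rose and 4 fell, with Castor1 (1.76 ± 0.14) and Sesn1 (1.14 ± 0.070) rising. Adjusted p-values of these named genes were at most 5.31e-07.

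In the tumors the lists separated. Of 120 tested genes 22 rose and 35 fell, where 11.9% and 14.9% of all genes did. Among the synthetases 16 of 20 fell and 1, Qars, rose, with a list median of −0.31 against 0.009 over all genes. Gars fell from 395 ± 58.6 to 247 ± 5.35 CPM (log2 fold change −0.68 ± 0.10, adjusted p = 0.00453; 0.146 without library 3) and Aars from 281 ± 46.9 to 184 ± 0.957 CPM (−0.61 ± 0.12, 0.00881; 0.184). In the cells both had risen, Aars by 0.73 ± 0.026. ER chaperone and ER-associated degradation genes went the other way, 13 of 22 rising and 1, Mbtps2, falling, with a median of 0.35. Calr, calreticulin, rose by 0.65 ± 0.090 (0.00332; 0.144), Pdia6, a disulfide isomerase, by 0.62 ± 0.059 (0.00115; 0.134) and Hspa5 by 0.37 ± 0.054 (0.00374; 0.179). XBP1 and ATF6 are known to raise such genes, but their activity is not measured by these data, and the source of the rises was not tested. In the cells Hspa5 and Atf6 rose (0.71 each) while Xbp1 was lower (−1.54).

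Of the eIF2 genes 7 of 15 fell and 2 rose in the tumors. Eif2ak3 rose from 43.2 ± 0.864 to 71.5 ± 0.924 CPM (0.73 ± 0.057, adjusted p = 0.000750; 0.134 without library 3), while Eif2s2, a subunit of eIF2 itself, fell (−0.53 ± 0.054, 0.00144; 0.135), and Eif2ak4 did not pass (−0.13, 0.288). Of 11 other ATF4 and CHOP targets 3 fell and 0 rose, among them Atf3 (−0.67 ± 0.19, 0.0395; 0.242) and the folate enzyme Mthfd1l (−0.63 ± 0.11, 0.00746; 0.154). Of 19 other enzymes 6 fell and 0 rose, among them Shmt1, the cytosolic counterpart of Shmt2 (−0.60 ± 0.076, 0.00243; 0.137). Of 19 other transporters 1 rose and 1 fell, Slc43a2 (0.53 ± 0.16, 0.0416; 0.272) and Slc38a1 (−0.27 ± 0.073, 0.0322; 0.289). Of 14 sensing genes 5 rose and 1 fell, led by Sesn3 (0.84 ± 0.086, 0.00139; 0.134) and Castor2 (0.69 ± 0.11, 0.00556; 0.165). Without library 3 of both groups 0 of the 120 genes passed in edgeR, and 34 had an unadjusted p under 0.05.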

How the data were processed

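RNA was sequenced from 12 libraries, 3 in each of 4 groups. The authors deposited estimated counts per gene, not scaled between libraries, and TPM, which the authors scaled for gene length and depth within each library. The submitters' processing notes name kallisto and the builds GRCm38 and mm10, with no version; the annotation is not given in the sources used here. Library preparation removed ribosomal RNA by the study's methods, whereas the labels name polyA RNA for cells and total RNA for tumors.

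Estimated counts were rounded, since the tests had been chosen for counts. The 6 cell libraries and the 6 tumor libraries were fitted apart, in R 4.3.3, by the quasi-likelihood test of edgeR 4.0.16 (after filterByExpr and TMM scaling). The p-values received Benjamini-Hochberg adjustment over all genes tested (threshold 0.05). A test on simulated data came first, in which 6.57% of calls were false for the cells and 5.91% for the tumors. It drew independent libraries with a shared spread for all genes, a setting that tumor library 3 may not meet. Alternatives were RLE and total-count scaling, no filter, DESeq2 1.42.0, limma 3.58.1 on log2(TPM + 1) and log2(TPM + 0.1), a replicate block, each library left out, and tumor libraries 1 and 2 only. Columns of all 12 libraries were used. Ddit3 has a second, overlapping identifier with at most 7.67 counts, which was not used. Gene positions are from GENCODE vM21 (34 of 35 identifiers in the same version) and sequences from RefSeq. Totals gave a floor of 3 counts, which covers counting error only.

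The members and lists were chosen with earlier results of these data known. Values per library are given for members with an absolute log2 fold change of at least 1 in the cells and at least 1 CPM on average and for members past the threshold in the tumors, the others by means, ranges or counts; members discussed beside these were added after their values were seen. From the lists, Eif2ak3, Eif2ak4, Atf3 and Hspa5 are named, with up to 2 genes per list and experiment of largest change past the threshold and at least 5 CPM. Atf6 in the cells was added beside Xbp1 after its value was seen. A marker and a gene of these lists are not reported here; the gene is kept in the counts of its list and the marker is left out of the sums.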

Additional observations from a re-analysis of the deposited data

Results flagged for a closer look

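All YJ1206 libraries lay on opposite sides of their controls in cells and in tumors for 8 members, and whether the effects differ was not tested. The share of all genes that did so was not counted. The log2 fold change in tumors and in cells was −0.5851 and 0.5656 for Atf4, −0.6278 and 1.34 for Asns, −0.6805 and 0.5834 for Psat1, and −0.3261 and 1.511 for Mthfd2. It was −0.8581 and 0.2065 for Psph, −0.3723 and 0.2275 for Slc3a2 and −0.2795 and 0.2563 for Slc7a5, 3 genes whose direction in the cells turns with TPM. Xbp1 was the opposite case, with 0.6267 in tumors and −1.54 in cells. Slc3a2 did not pass in the tumors (adjusted p = 0.0518, edgeR).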

How the results depend on the processing

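The tumor results depend on single libraries. With a library left out, members that fell numbered 4 to 21 (11 with all libraries) and members that rose 2 to 5 (3), other pathway genes that rose 12 to 28 (22) and that fell 16 to 40 (35), and genes called in all 1877 to 5724 (4176). The lowest counts came without YJ1206 library 3, tied without vehicle library 3 for pathway genes that fell and without vehicle library 3 or YJ1206 library 2 for members that rose (Nupr1 lost in each), and the highest without vehicle library 2. Members that fell numbered 7 without vehicle library 1, 5 without vehicle library 3, and 6 without YJ1206 library 1 or 2. From libraries 1 and 2 only, 0 members rose, 0 fell, 0 pathway genes rose, 0 fell and 1 gene was called in all, a fit with fewer samples. DESeq2 called 17 members lower; the cause was not tested. RLE and total-count scaling gave the same side of the threshold for all 35 members. In cells, leaving out a library gave 8622 to 8824 calls (8995).

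Psph, Slc3a2 and Slc7a5 turned in cells to −0.1186, −0.2713 and −0.0494 on log2(TPM + 1), and to −0.1224, −0.2723 and −0.0496 on log2(TPM + 0.1). Uncalled members turned in the tumors when a library was left out, with ranges of −0.1227 to 0.1402 for Vldlr (0.1041 from libraries 1 and 2), −0.6754 to 0.1838 for Stc2, −0.1716 to 0.1393 for Slc7a3, −0.1957 to 0.0963 for Slc6a9 and −0.0511 to 0.2859 for Ppp1r15a.

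The labels do not say whether replicate numbers pair the samples. Deviations of same-numbered libraries correlated at −0.029 to 0.010 in cells and −0.014 to 0.00076 in tumors. Those of differently numbered libraries correlated at −0.028 to 0.042 and −0.019 to 0.021. These values show no sign of pairing but cannot exclude it. With the replicate block 8905 genes were called in cells and 3477 in tumors, and 3 members rose and 9 fell there.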
